A study of Rattus norvegicus with 3 samples.

Results

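Longer intronic H3K4me2 peaks of the clozapine library are described here. They are the peaks of the clozapine list on chromosomes 1 to 20 that the authors classed as intronic and that are longer than 200 bp. There were 1082 of them among 19449 peaks of the clozapine list and 26577 peaks of both lists together. They were 24.8% of the 4356 intronic clozapine peaks on these chromosomes and 16.3% of the 6629 peaks there that passed the length limit. The members were chosen by the measured peak length together with the class and chromosome that the list gives, so their values within the clozapine list are a description and carry no test.

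The study dissected liver from female Sprague-Dawley rats, with 12 animals per group, after 9 weeks of oral dosing 2 times a day. One group received clozapine (Clozaril) at 20 mg/kg, one olanzapine (Zyprexa) at 3 mg/kg, and one the vehicle, a sweet cookie dough pellet without drug. Clozapine was given by mouth with a syringe once the rats avoided the drugged pellet, followed by a plain pellet, and all animals were fasted when sacrificed. H3K4me2 was profiled by chromatin immunoprecipitation and sequencing (ChIP-seq) in 1 library per group, and the lists compared are those of clozapine and olanzapine. Vehicle peaks were not analysed here. The sources used here do not state how many animals went into a library. Each drug has a single library, so drug, library and the animals behind it cannot be told apart. No test between drugs was made. The lists give no read numbers, so the depth behind a peak is unknown. The study's alignment summary places fewer reads of the clozapine library on the genome than of the other libraries. Whole liver was used, so a peak cannot be assigned to 1 cell type.

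H3K4me2 is dimethylation of lysine 4 on histone H3, a mark found around active promoters and at enhancers. Enhancers are stretches of DNA that raise transcription from a promoter at a distance, and many of them lie within introns. In hepatocytes, factors such as FOXA, HNF4A and C/EBP proteins bind sites of this kind near genes of lipid, glucose and drug metabolism. An intronic class therefore can hold enhancers, but the class alone does not make a region one.

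Most longer intronic peaks were of modest strength. Their median fold enrichment, a ratio over a background that the sources do not name, was 3.38 (quartiles 2.90 and 4.14, n = 1082 peaks) and the highest was 12.7. The median -log10 p was 5.31, and 121 members (11.2%, Wilson 95% interval 9.44 to 13.2%) had a -log10 q of at least 5. Shorter intronic peaks of the same library were stronger by these measures, with a median fold enrichment of 3.85 over 3274 peaks and 27.2% of them at a -log10 q of at least 5. Longer intergenic clozapine peaks had a median of 3.33 (n = 2999), and longer exonic ones 3.49 (n = 2207). The 880 longer intronic peaks of the olanzapine library had a median of 4.24, but fold enrichments of different libraries are not on a shared scale. Together the members covered 528 kb.

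Peaks lay on both sides of the length limit, but few of the shorter ones came near it. Shorter intronic clozapine peaks had a median length of 170 bp, which was also the shortest length. Their 95th percentile was 174 bp. Just outside it were an intronic peak of Arhgap28 (200 bp, fold enrichment 3.62), and peaks of Foxp2 and Gjc1 (199 bp each, fold enrichments 3.52 and 5.04). Just inside it were peaks of the kinase gene Frk and of Tpd52l2 (1 bp longer than the limit, fold enrichments 4.69 and 4.19) and of Cd244 (202 bp, fold enrichment 6.86).

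Lengths of the members were not spread evenly. Of the 1082 members, 251 (23.2%, Wilson interval 20.8 to 25.8%) were between 290 and 310 bp long, and 174 fell in the single bin from 301 to 310 bp. The most frequent length was 309 bp, with 27 members. The same length range held 17.4% of longer intergenic clozapine peaks (interval 16.1 to 18.8%), but 5.07% of longer exonic ones (interval 4.23 to 6.07%) and 4.55% of longer intronic olanzapine peaks (interval 3.36 to 6.13%). These intervals cover the counting of peaks only. The crowding at this length was thus seen outside exons in the clozapine list. Members of 290 to 310 bp had a median fold enrichment of 3.77. It was 3.57 for the 184 shorter members and 3.20 for the 244 members between 310 and 500 bp long. Other measures gave another order. In the same sequence, the median -log10 p was 5.59, 6.03 and 5.23. A fold enrichment of at least 5 was reached by 12.7%, 9.78% and 14.3%.

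**Figure D1:**
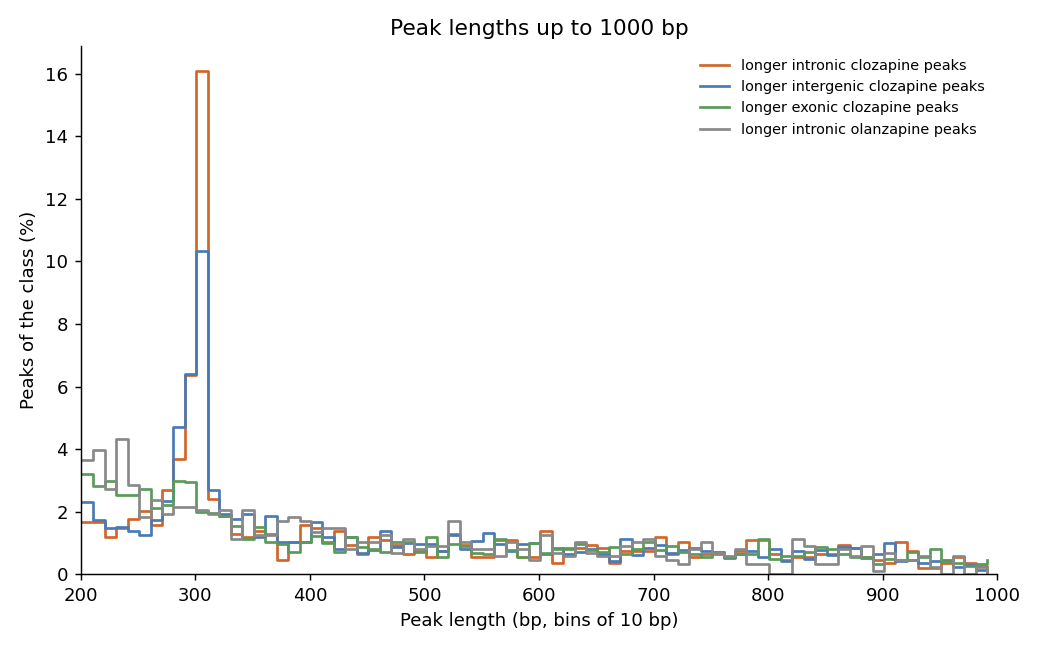
Share of peaks (%) by peak length in bins of 10 bp, up to 1000 bp, for 4 classes of longer peaks. Longer intronic clozapine peaks and longer intergenic clozapine peaks crowd at 301 to 310 bp (174 of 1082 of the former), while longer exonic clozapine peaks and longer intronic olanzapine peaks do not.

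Members of 500 bp to under 1000 bp were mostly weak. The 170 members of 500 bp to under 700 bp and the 202 members of 700 bp to under 1000 bp both had a median fold enrichment of 2.90, and the 31 longer ones had 3.45. A single pair of values, a fold enrichment of 2.90 and a -log10 p of 5.15, was given to 152 members (Wilson interval 12.1 to 16.2% of members), which were 267 to 989 bp long. In the whole clozapine list 1450 peaks (7.46%) carried this pair, among them 14.5% of the longer intergenic, 7.11% of the longer exonic and 4.09% of the shorter intronic peaks. The most frequent pair of the olanzapine list was not looked for. Members with the pair cannot be ranked among themselves.

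**Figure D2:**
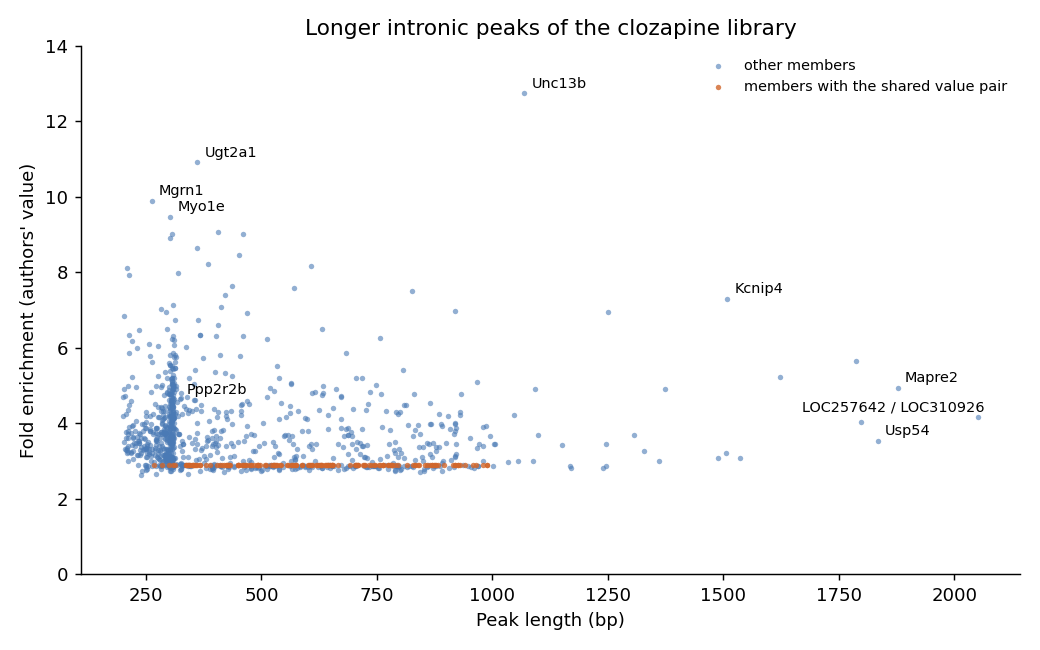
Fold enrichment against peak length (bp) for the 1082 longer intronic clozapine peaks, 1 point per peak, with the 152 members that share 1 pair of values in orange. Most points lie below a fold enrichment of 5, a column of points stands at about 300 bp, and Unc13b reaches 12.7 at 1069 bp.

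The 20 members with the highest -log10 p had a median fold enrichment of 8.34 and a median length of 361 bp, and 3 of them were 290 to 310 bp long. They were grouped by the known roles of their genes.

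Among genes of membrane traffic, Unc13b, which primes synaptic vesicles for release, had the strongest member. It lay on chromosome 5 from 58534935 to 58536003 in Rnor_6.0 (1069 bp), with a fold enrichment of 12.7 and a -log10 p of 30.2. The nearest olanzapine peak was 29.5 kb away. Aak1, a kinase of clathrin-mediated endocytosis, had a member on chromosome 4 from 118705183 to 118705642 (fold enrichment 9.03). Vps39, a subunit of the complex that tethers membranes to lysosomes, had one of 384 bp (fold enrichment 8.21).

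Genes of the cytoskeleton and cell junctions were also among the strongest. Myo1e, an unconventional myosin, had a member on chromosome 8 from 76677115 to 76677417 (303 bp, fold enrichment 9.47). Myh10, a non-muscle myosin heavy chain, had one of 301 bp on chromosome 10 from 55303368 to 55303668 (fold enrichment 8.92). Both of these members have the length at which the list crowds. Marveld2, a protein of tricellular tight junctions, had a member of 407 bp (fold enrichment 9.07), and Kank1, which regulates actin, one of 209 bp (fold enrichment 8.11).

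Signalling genes with strong members included a growth factor receptor and a Wnt co-receptor. Fgfr1, a fibroblast growth factor receptor, had a member on chromosome 16 from 71275446 to 71275765 (fold enrichment 7.98), which lay 0.786 kb from an exonic clozapine peak, and a second, weaker member (fold enrichment 3.66). Lrp5, a co-receptor for Wnt proteins, had one on chromosome 1 from 218912314 to 218912620 (307 bp, fold enrichment 9.01), with an olanzapine peak 6.44 kb away. It had a second member of 300 bp (fold enrichment 4.25), and both Lrp5 members have the length at which the list crowds. Mgrn1, a ubiquitin ligase, had a member of 262 bp (fold enrichment 9.90), and Oxsr1, a kinase of the osmotic stress response, one of 919 bp (fold enrichment 6.97). Ppp2r2b, a regulatory subunit of protein phosphatase 2A, stood apart in its values: a -log10 p of 15.8 came with a fold enrichment of 4.64, while the other 19 of the 20 had at least 6.97.

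Synaptic and ion channel genes made up another group of the 20. Neto2, an auxiliary subunit of kainate receptors, had a member on chromosome 19 from 22476944 to 22477394 (fold enrichment 8.46). Dlg2, a scaffold protein of the postsynaptic density, had one of 571 bp (fold enrichment 7.59), with the nearest olanzapine peak 753 kb away. Kcnip4, which binds voltage-gated potassium channels, had one of 1509 bp (fold enrichment 7.30), with the nearest olanzapine peak 1218 kb away. Conjugation and transport were represented by Ugt2a1, a UDP-glucuronosyltransferase known from the olfactory epithelium (fold enrichment 10.9, on chromosome 14 from 22854007 to 22854367), and by the efflux transporter Abcc1 (825 bp). Cdca7l (fold enrichment 8.66) and Cct6b, a chaperonin subunit known from testis (fold enrichment 7.93), were also among the 20.

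The 5 longest members ran from 1788 to 2051 bp. The longest, on chromosome 14 from 46640299 to 46642349, was assigned to both LOC257642 and LOC310926 and had a fold enrichment of 4.18. It was followed by members of Mapre2, a microtubule-binding protein (1878 bp, fold enrichment 4.94), Usp54 (1834 bp, fold enrichment 3.54), Kcnd2, a voltage-gated potassium channel subunit (1799 bp, fold enrichment 4.04), and Myo7b, a myosin of the intestinal brush border (1788 bp, fold enrichment 5.64).

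Members were mostly single within their gene. They named 952 genes, of which 829 had 1 member, 106 had 2 and 17 had 3 or more. Stag1, a cohesin subunit, and Hpse2, a heparanase-related protein, had the most, with 5 each. The members of Stag1 on chromosome 8 spread over 300 kb and had fold enrichments of at least 2.84. Those of Hpse2 on chromosome 1 spread over 872 kb, with fold enrichments of 2.86 to 4.07. No olanzapine peak outside the intergenic class named Hpse2.

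Genes with several members differed in how tightly these lay. In Etv1, a transcription factor of the ETS family, 3 members lay within 16.0 kb on chromosome 6, with fold enrichments of 3.70 to 5.35, and the gene also had 4 exonic clozapine peaks. In the receptor tyrosine kinase gene Ros1, 3 members lay within 21.4 kb on chromosome 20 (fold enrichments 2.79 to 3.32), beside 6 exonic clozapine peaks. Nf1, a tumour suppressor gene, had 3 members over 166 kb and 17 exonic clozapine peaks. No olanzapine peak outside the intergenic class named Etv1, Ros1 or Nf1. In contrast, the 4 members of Cntnap5c, of the contactin-associated protein family, spread over 1079 kb, and the 3 of the glypican gene Gpc5 over 1266 kb. Rere had 4 members (fold enrichments 2.94 to 4.71), Camta1 and Ppm1l 3 each, and 4 members named Mapre2, of which 2 also named a neighbouring gene.

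Ugt2a1 had 4 members over 656 kb on chromosome 14, with fold enrichments of 10.9, 8.16, 4.58 and 3.62. The gene lies in a cluster of similar UDP-glucuronosyltransferase genes, so the assignment of its peaks to 1 gene is uncertain. Vkorc1l1, a vitamin K epoxide reductase, was named on chromosomes 8 and 12, and the peaks of the 2 places resembled each other. On chromosome 12 its members ran from 30258869 to 30259175 (fold enrichment 4.50) and from 30260446 to 30260769 (fold enrichment 2.91), 1271 bp from the end of one to the start of the other. On chromosome 8, where LOC500948 was named with it, members ran from 16295975 to 16296300 (fold enrichment 4.79) and from 16297568 to 16297876 (fold enrichment 4.45), where this distance was 1268 bp. The olanzapine list had an exonic peak of this name at each place as well, with fold enrichments of 4.95 and 5.46. Such a name covers more than 1 locus, so the assignment of these peaks to 1 gene is uncertain.

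Few members lay where the olanzapine library had a peak. Of the 1082 members, 5 overlapped an olanzapine peak by at least 1 bp (0.462%, Wilson interval 0.198 to 1.08%), and over the whole clozapine list the share was 0.864% (168 of 19449). Among longer exonic clozapine peaks it was 3.22% (71 of 2207), among longer intergenic ones 0.467% and among shorter intronic ones 0.275%. The interval of the members includes the shares of the whole list and of both non-exonic classes, and excludes that of longer exonic peaks. An olanzapine peak within 10 kb was found for 138 members (12.8%, interval 10.9 to 14.9%), and the median distance to the nearest one was 72.9 kb. The share within 10 kb was 12.4% of shorter intronic, 8.04% of longer intergenic and 26.9% of longer exonic clozapine peaks.

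Of the 5 overlapping members, 3 met an intronic olanzapine peak. The member of Alg14, a subunit of an enzyme of N-glycosylation, ran on chromosome 2 from 224897989 to 224898805 (fold enrichment 3.96), wholly inside an olanzapine peak of 1253 bp (fold enrichment 5.29). That of Lrrtm3, a synaptic adhesion protein, ran on chromosome 20 from 26075513 to 26075794 (fold enrichment 3.49), also inside an olanzapine peak (fold enrichment 3.18). In Lmntd1 the olanzapine peak of 330 bp lay inside the member of 728 bp (fold enrichments 4.32 and 3.42). In Enho, which codes for the liver-secreted peptide adropin, a member on chromosome 5 from 58019023 to 58019670 (fold enrichment 2.81) shared 381 bp with an olanzapine peak in the 5' UTR (fold enrichment 3.88). The fifth, at LOC100233176, met an exonic olanzapine peak over 481 bp (fold enrichments 3.10 and 4.57). None of the 5 reached a fold enrichment of 4.

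Distances from members to other clozapine peaks were also measured. Another clozapine peak lay within 1 kb of 17 members (1.57%) and within 10 kb of 243 (22.5%). An exonic clozapine peak lay within 10 kb of 92 members, and the median distance to one was 176 kb. The same shares were not computed for other classes, so these values describe the members only.

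Genes with a member also carried peaks of other classes. Of the 952 names, 932 (97.9%) matched the gene names table and 928 of these were protein-coding genes with a curated transcript. Of the 928, 399 (43.0%, interval 39.8 to 46.2%) also had a shorter intronic clozapine peak, against 12.7% of 18539 such genes in all. An exonic clozapine peak was found in 21.9% of the 928 (interval 19.3 to 24.6%), against 13.7% of all, and one in the 3' UTR in 39, or 4.2%, against 2.13%. A clozapine peak in the upstream or 5' UTR class was found in 10 (1.08%, interval 0.586 to 1.97%), against 0.879%, which lies within the interval. Among the 1956 genes that had shorter but no longer intronic clozapine peaks, 20.3% had an exonic, 3.73% a 3' UTR and 1.69% an upstream or 5' UTR clozapine peak, each within the interval of the member genes. Of the 928 genes, 407 had no clozapine peak of these other classes.

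The olanzapine list also named member genes often. A peak of any class but intergenic was found there for 372 of the 928 genes (40.1%, interval 37.0 to 43.3%), against 26.7% of all, one upstream, in the 5' UTR or exonic for 296 (31.9%), against 22.7%, and an intronic one for 104 (11.2%, interval 9.34 to 13.4%), against 4.89%. Genes that had shorter but no longer intronic clozapine peaks gave 40.0% for any class and 9.20% for intronic peaks. Genes are not replicates, and these shares are not adjusted for gene length, so they describe the lists only.

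Gene length moved with the presence of a member. The distances that the authors give from intergenic peaks to their neighbouring genes place both ends of 1838 genes, of which 157 had a member. These were 16.5% of the member genes counted by name and chromosome, below the 80% required here, so a check of length over the whole set is void and the values hold for the 1838 genes. None of 496 genes shorter than 10 kb had a member (Wilson interval up to 0.769%). The share was 3.19% of 470 genes of 10 to 30 kb, 9.68% of 465 genes of 30 to 100 kb, 17.1% of 281 genes of 100 to 300 kb and 38.9% of 126 longer genes (interval 30.8 to 47.6%). Per Mb of gene, members were not denser in the longest genes, with 1.67 members per Mb at 10 to 30 kb, 1.83 at 30 to 100 kb, 1.12 at 100 to 300 kb and 0.912 in longer genes. Gene length moved in the same way with shorter intronic clozapine peaks. Their share rose from 1.01% of genes in the shortest class to 46.3% at 100 to 300 kb and 75.4% in the longest. The share of genes with a longer intronic olanzapine peak ran from 2.82% in the shortest class to 11.0% at 100 to 300 kb and was 7.94% in the longest.

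**Figure D3:**
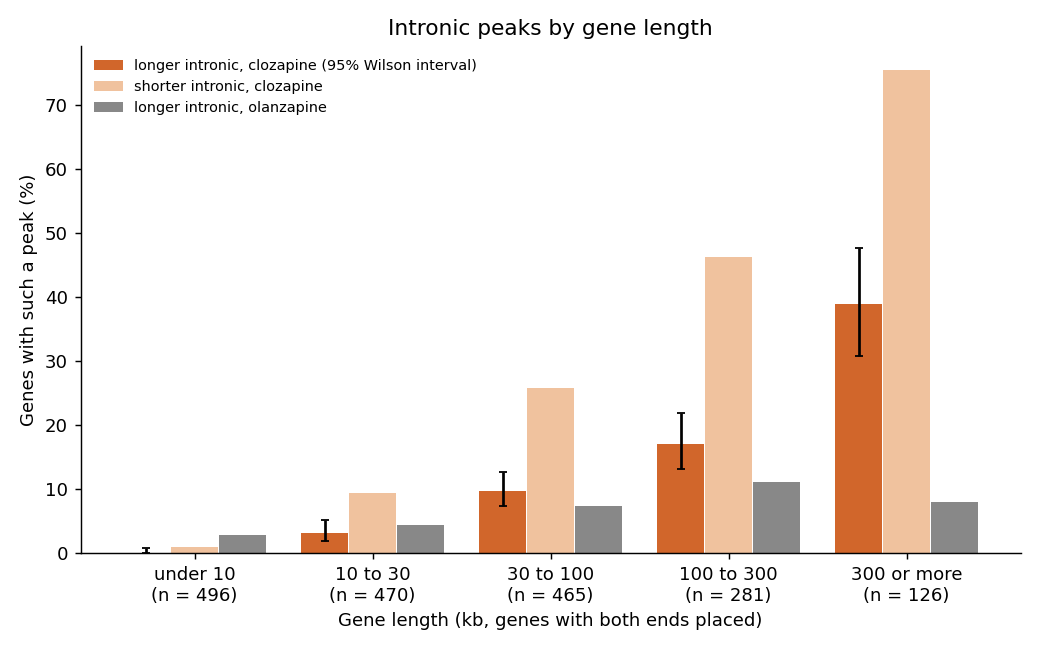
Share of genes (%) with a longer intronic clozapine peak (with 95% Wilson interval), a shorter intronic clozapine peak or a longer intronic olanzapine peak, by gene length (kb), for 1838 genes whose ends the files place. The share with a longer intronic clozapine peak runs from 0 of 496 genes under 10 kb to 38.9% of 126 genes of 300 kb or more.

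Members were found on each of chromosomes 1 to 20. Their density was highest on chromosome 19, with 46 members and 0.739 per Mb, followed by chromosome 10 with 74 members and 0.657 per Mb. It was lowest on chromosome 11, with 25 members and 0.277 per Mb. Longer intronic olanzapine peaks were densest on chromosome 20 (0.676 per Mb) and sparsest on chromosome 15 (0.189 per Mb). On chromosome 19 longer intergenic clozapine peaks had a density of 1.19 per Mb, and on chromosome 10 of 1.60 per Mb. Density was computed over the span up to the last peak of a chromosome in the 2 lists.

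**Figure D4:**
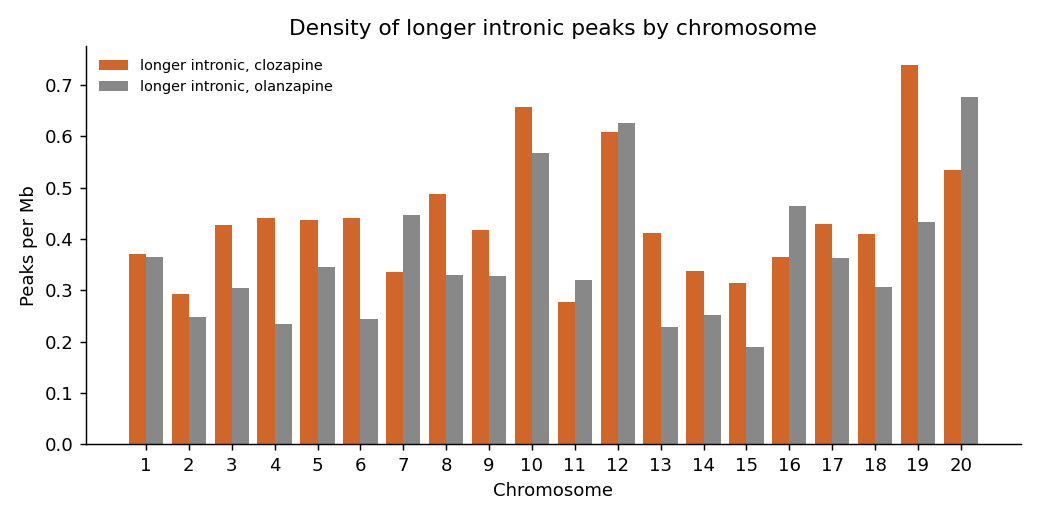
Density (peaks per Mb) of longer intronic peaks of the clozapine and olanzapine libraries on chromosomes 1 to 20. The clozapine density is highest on chromosome 19 (0.739 per Mb) and lowest on chromosome 11 (0.277 per Mb), and the olanzapine density is highest on chromosome 20 (0.676 per Mb).

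Gene lists of liver biology varied in how many genes had a member. Of all protein-coding genes, 5.01% had one, whatever their length. Among genes with both ends placed, the share ran from 0% under 10 kb to 38.9% at 300 kb or more. The lists were not matched for gene length, so a share above or below 5.01% is a description only. Over all protein-coding genes, 12.7% had a shorter intronic and 13.7% an exonic clozapine peak. An olanzapine peak of any class but intergenic was found in 26.7%, and an intronic one in 4.89%. Of 16 hepatocyte markers, which include Alb, Apob, Ttr and Cps1, none had a member, while 13 had an exonic clozapine peak, 15 an olanzapine peak and 5 an olanzapine intronic peak. Of 39 genes of drug metabolism, 1 had a member (2.56%) and 11 an olanzapine intronic peak. The gene was Cyp3a2, a cytochrome P450, with 2 members on chromosome 12 (fold enrichments 4.33 and 3.15) that also named the neighbouring genes Bud31 and Smurf1. Of 43 nuclear receptors, 1 had a member (2.33%), the thyroid hormone receptor Thra (fold enrichment 3.61), and 4 had an olanzapine intronic peak.

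Of 50 genes of lipid and cholesterol metabolism, 3 had a member (6.0%) and 9 an olanzapine intronic peak. Fads2, a fatty acid desaturase, was named together with Incenp by a member on chromosome 1 from 225942577 to 225942888 (fold enrichment 6.73), with an olanzapine peak 9.07 kb away. Lipc, the hepatic lipase, had a member of 302 bp (fold enrichment 4.50). Mlxipl, the carbohydrate-responsive factor ChREBP, had one of 852 bp (fold enrichment 2.74). Of 42 genes of insulin signalling and glucose metabolism, 4 had a member (9.52%) and 4 an olanzapine intronic peak. Among these were the kinase genes Akt2 (fold enrichment 2.82) and Gsk3b (fold enrichment 2.88), and the growth factor receptor Igf1r (fold enrichment 3.47).

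Of 26 liver transcription factors, 4 had a member (15.4%) and 21 an olanzapine peak. Tcf7l2, an effector of Wnt signalling, had one of 211 bp on chromosome 1 from 276724613 to 276724823, 1.22 kb from an exonic clozapine peak. Nr5a2, a regulator of bile acid genes, had one of 572 bp (fold enrichment 3.02), Zhx2 one of 317 bp (fold enrichment 2.89), and Nfix had 2 members that carried the shared pair of values. Of 24 genes of the H3K4 methylation machinery, 3 had a member (12.5%). They were the demethylases Kdm1a (fold enrichment 4.14) and Kdm5b (fold enrichment 3.00) and the methyltransferase Smyd3 (fold enrichments 3.71 and 3.07). Of 20 housekeeping genes and 37 genes of chromatin remodelling and acetylation, none had a member, while 12 and 13 had an exonic clozapine peak.

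Shares in the lists of neural genes ranged from 18.8 to 35.7%. Shorter intronic clozapine peaks were found in 8 of 14 neuron markers and 16 of 40 glutamate and GABA receptor genes. They were also found in 28 of 57 genes of synaptic and neural adhesion and 20 of 48 voltage-gated channel genes. More genes of each list had a shorter than a longer one. The same holds over all protein-coding genes, at 12.7% against 5.01%. Of 14 neuron markers, 5 had a member (35.7%), and no gene of this list had an olanzapine peak of any class but intergenic. Besides Dlg2, described above, they were the synaptic vesicle calcium sensor Syt1 (309 bp, fold enrichment 6.32), the adhesion protein Dscam (fold enrichment 3.73), and Rbfox1 and Csmd1, whose members carried the shared pair of values. Of 40 glutamate and GABA receptor genes, 8 had a member (20.0%) and none an olanzapine peak outside the intergenic class. The strongest was in Gabbr1, a GABA-B receptor subunit (fold enrichment 4.65), followed by Grid1 and Grin3a (fold enrichments 3.52 and 3.33). Of 57 genes of synaptic and neural adhesion, 11 had a member (19.3%) and 4 an olanzapine intronic peak. Members of Cntnap5a (fold enrichment 6.60) and of Nlgn1, a neuroligin (310 bp, fold enrichment 5.19), followed that of Dlg2. Of 48 voltage-gated channel genes, 9 had a member (18.8%), among them Kcnq1 (308 bp, fold enrichment 5.44) and Cacna2d3 (fold enrichment 4.11), after Kcnip4. Without the members of 290 to 310 bp, a setting chosen after seeing the data, 3 neuron markers still had a member, as did 2 genes of insulin signalling and glucose metabolism and 1 of the H3K4 methylation machinery. Without the members of the shared value pair, a setting also added after seeing the data, 3 neuron markers and 5 glutamate and GABA receptor genes had a member. Above 300 bp these counts were 4 and 5, and at a fold enrichment of at least 5 they were 2 and 0.

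Lists of adhesion molecules and signalling receptors also held several genes with a member. Of 35 cadherins and catenins, 9 had a member (25.7%), among them Cdh1, the epithelial cadherin (fold enrichment 4.52), Cdh3 (fold enrichment 4.14) and Cdh13 (fold enrichment 3.99). Of 53 receptor tyrosine kinases, 9 had a member (17.0%) and 28 an exonic clozapine peak. Fgfr1 had the strongest, followed by Ror1 (fold enrichment 6.07) and Ntrk3 (fold enrichment 3.32). Of 20 receptor protein tyrosine phosphatases, 3 had a member, with Ptprz1 the strongest (fold enrichment 3.72), and of 21 cyclic nucleotide phosphodiesterases 4 did, with Pde4a the strongest, before Pde1b and Pde4d (fold enrichments 3.25 and 2.90). Of 40 collagens and laminins, 1 had a member, Lama4 (fold enrichment 5.04). None of the 28 receptor genes that antipsychotic drugs act on, or their relatives, had a member. Chromosome X was outside the choice of members, and a peak of the same class and length limit lay there in Htr2c, a serotonin receptor (884 bp, fold enrichment 2.88), named after its value was seen. Many genes of the neural and adhesion lists are known to be long, and the part of gene length in these counts was not tested.

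Marker lists of the other cell types of liver were short, and 1 gene more or less moves their shares by several percentage points. Of 14 markers each of liver endothelial cells and of Kupffer cells and macrophages, and of 12 of cholangiocytes, none had one. Of 14 hepatic stellate cell markers, Reln had a member (7.14% of the list, fold enrichment 3.49). Of 14 lymphocyte markers, Ikzf1 and Ikzf3, which code for transcription factors of lymphoid development, had one each (14.3% of the list, fold enrichments 7.08 and 3.84). The part of these cell types in the result was not tested.

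**Figure D5:**
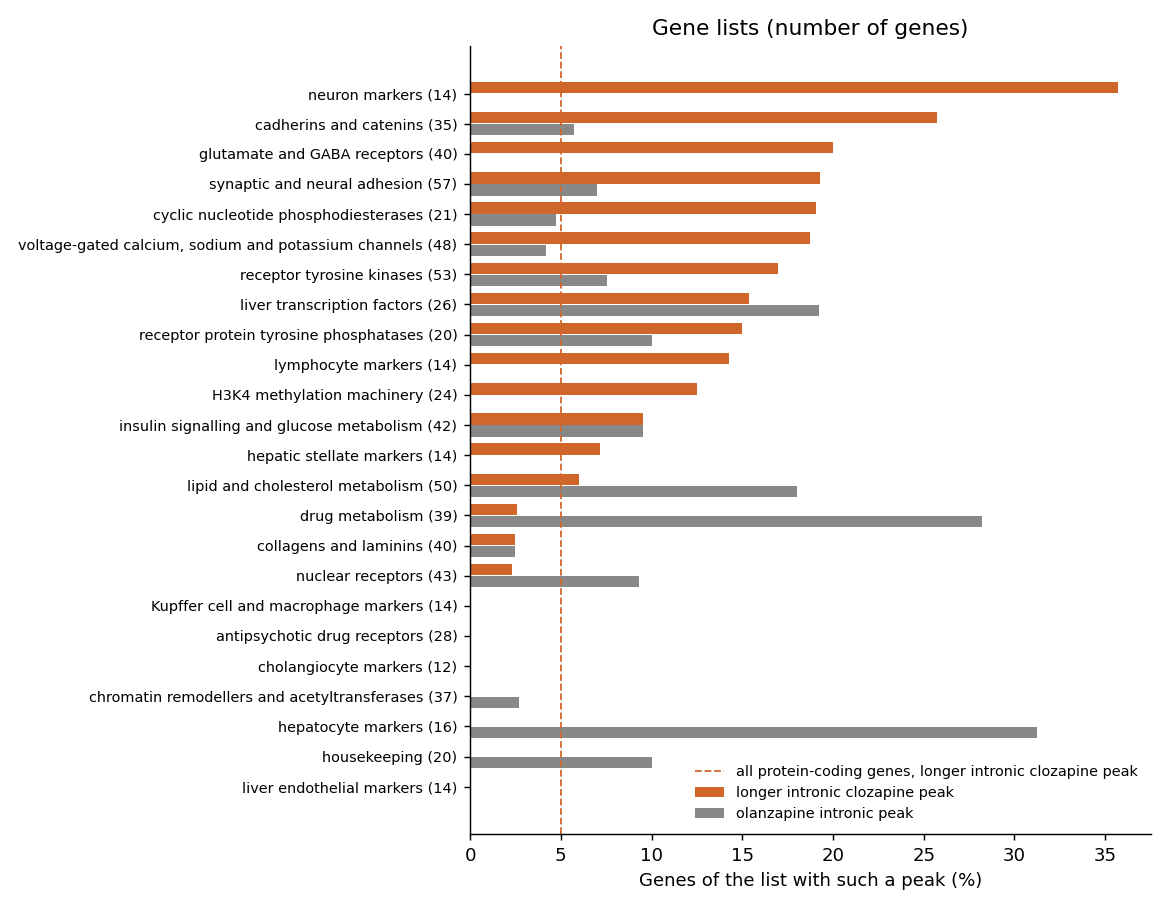
Share of genes (%) in each of 24 lists with a longer intronic clozapine peak and with an olanzapine intronic peak, with the number of genes in brackets and the share among all protein-coding genes (5.01%) as a dashed line. Neuron markers, cadherins and neural lists have the larger clozapine shares, while hepatocyte markers and drug metabolism have the larger olanzapine shares. Over all protein-coding genes the share with an olanzapine intronic peak, which is not drawn, was 4.89%.

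Pathway membership was read from the gene identifiers that the authors list for each KEGG pathway of the clozapine library. Of 2396 genes listed in any pathway, 383 had a member (16.0%). The listed genes are those of the clozapine library, so the shares are not shares of whole pathways. Among the 149 pathways with at least 30 listed genes, the largest share was in inositol phosphate metabolism, with 12 of 32 genes (37.5%), which include the kinase genes Pip5k1a, Pip5k1b and Pip5k1c and the phospholipase genes Plcb1 and Plcg2. Neuroactive ligand-receptor interaction had 21 of 61 (34.4%), among them the receptor genes Lepr, Ghr and Oprm1, and tight junction 20 of 70 (28.6%). Metabolic pathways had 68 of 388 (17.5%) and insulin signalling 11 of 73 (15.1%), close to the level of all listed genes. Low shares were found in the spliceosome, with 3 of 59 (5.08%), PPAR signalling, with 1 of 30 (3.33%), and the ribosome, with 1 of 70 (1.43%). These pathways were chosen after their counts were seen, and gene length was not taken into account.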

How the data were processed

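Per the study's methods, BWA placed the cleaned reads on Rnor_6.0, and reads with 1 location and no mismatch were retained. The peak caller, its control, its threshold and the annotation version are not given in the sources used here. For each peak, the authors' deposited lists give position, length, class, gene, a fold enrichment (a ratio), and p-values and q-values on a -log10 scale. The authors' deposited KEGG table gives counts of genes per pathway and their identifiers. Only these were read from it, and its p-values, the GO tables and the short second sheets were not used.

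Positions count from 1. Gene names that a spreadsheet had turned into dates (2 members) were left out of gene counts, and peaks naming several genes counted for each. Intergenic peaks were left out when genes with a clozapine or olanzapine peak were counted. Names were matched by symbol or unique synonym to a RefSeq table of assembly GRCr8, used for names only. Shares carry 95% Wilson intervals. Genes above 2500 kb or with conflicting ends were left out of the length classes. No genome of the files' build was used, so sequence content was not analysed. The 24 lists hold 692 genes. Members and lists were chosen with earlier results of these data known.

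Named were the 20 members highest in -log10 p, the 10 genes with most members, the 5 longest members, members overlapping an olanzapine peak and up to 3 genes per list. Further names were chosen after their values were seen. Some members chosen in this way are not reported here. Alternatives were other length, q and fold limits, chromosome X, other overlap windows and other peak classes. Overlap counting was tested on 1000 simulated peaks and recovered 100% of planted overlaps. Scripts ran under Python 3.11.15 with pandas 2.3.3 for tables, numpy 2.4.6, matplotlib 3.10.9 for plots and scipy 1.17.1.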

Additional observations from a re-analysis of the deposited data

Results flagged for a closer look

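Chromosome X, which lay outside the choice of members but inside the whole lists, held 32 intronic clozapine peaks longer than 200 bp. Their density was 0.200 per Mb, against 0.413 per Mb over chromosomes 1 to 20, with a median fold enrichment of 3.08 and a median length of 406.5 bp. The strongest was in Syn1, which codes for synapsin I of synaptic vesicles, from 1345825 to 1346221 (fold enrichment 6.29), followed by Asb12 (fold enrichment 4.18) and Ogt, the O-GlcNAc transferase (fold enrichment 3.73).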

How the results depend on the processing

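No paired analysis was possible because each group has 1 library. Without a length limit there were 4356 intronic clozapine peaks in 2943 genes, 863 genes with 2 or more, 211 list genes, a median length of 171 bp and a median fold enrichment of 3.85. Above 300 bp, 74 genes had 2 or more members, and the medians were 492 bp and 3.22. At a -log10 q of at least 5 there were 121 members in 122 genes, 4 genes with 2 or more, 14 list genes, medians of 339 bp and 5.64, an olanzapine overlap of 0% and an olanzapine peak for 47.0% of genes. At a fold enrichment of at least 5 there were 107 members in 108 genes, 2 genes with 2 or more, 12 list genes, medians of 313 bp and 5.82, an overlap of 0%, an olanzapine peak for 48.6% of genes and an exonic clozapine peak for 26.7%. An olanzapine peak lay within 10 kb of 12.8% of members. At any distance, 11.2% of member genes were named by an intronic olanzapine peak. One upstream, in the 5' UTR or exonic named 31.9%. An exonic clozapine peak longer than 200 bp was found for 11.7% of genes. In settings chosen after seeing the data, the medians were 326 bp and 3.52 without the members of the shared value pair, and 484 bp and 3.21, with 80 genes of 2 or more members, without members of 290 to 310 bp. Of 71 such values, 36 stayed within their interval or within 1.5 times the count. Of 168 counts of single lists under these settings, 105 did. Stricter limits leave fewer peaks by construction. Reads behind each peak are unknown, so how far depth limits the comparison with olanzapine cannot be given.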

Other observations

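Some gene families were looked at because several of their genes were seen to have a longer intronic clozapine peak, so their counts are values with no test. They stand beside 5.01% of all protein-coding genes. For a shorter intronic clozapine peak that share was 12.7%, and for an olanzapine peak of any class but intergenic 26.7%. The 16.0% of genes listed in any pathway has another base. It counts only genes that the authors list for the clozapine library, while a family counts all its genes. Of 12 genes of protein phosphatase 2A regulatory subunits, 6 had a member: Ppp2r2a (fold enrichment 4.47), Ppp2r2b (fold enrichments 4.64 and 2.86), Ppp2r2c (fold enrichment 2.90), Ppp2r3a (fold enrichment 4.44), Ppp2r5c (fold enrichment 3.47) and Ppp2r5e (fold enrichments 4.44 and 4.33). The subunits direct the phosphatase to its substrates, and 6 of the 12 genes had a shorter intronic clozapine peak and 5 an olanzapine peak. Each of the 3 genes of type I phosphatidylinositol 4-phosphate 5-kinases, which make the lipid PIP2, had a member and an olanzapine peak, and 2 of them had a shorter intronic clozapine peak. The fold enrichments of these members were 4.16 in Pip5k1a, 2.83 in Pip5k1c and 2.82 in Pip5k1b. Of 11 myotubularin genes, which code for phosphoinositide phosphatases and their inactive relatives, 4 had a member, and 2 had a shorter intronic clozapine peak. Of 10 adenylyl cyclase genes, 3 had one, with Adcy3 the strongest (fold enrichment 5.20), before Adcy1 (fold enrichment 4.81) and Adcy2 (fold enrichment 3.77). As many adenylyl cyclase genes, 3, had a shorter intronic clozapine peak. Of 10 diacylglycerol kinase genes, 2 had a member, Dgkb (fold enrichment 3.96) and Dgki (fold enrichment 3.72), and 4 had a shorter intronic clozapine peak.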
